A study of Mus musculus with 5 samples.

Results

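Receptors for prostanoids and leukotrienes, lipid mediators made from arachidonic acid, were examined in group 2 innate lymphoid cells (ILC2s) of the mouse lung. Of 10 genes listed, 9 were measured by a probe set that the platform annotation pairs with that gene alone, out of 22180 genes measured in the same way. They were Ptger2, Ptger4, Ptgir, Ptgdr, Cysltr1, Cysltr2, Ltb4r1, Fpr2 and Hpgds. All encode receptors except Hpgds, which encodes an enzyme, the hematopoietic prostaglandin D synthase. For the remaining gene, Ptgdr2, which encodes the chemoattractant receptor CRTH2, the probe set is also annotated to Ccdc86, so no value is given. Ptgdr was covered by 2 probe sets, and the one with the higher mean over the 5 arrays was used.

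The cells came from the lungs of naive adult male mice. There were 3 arrays of wild-type cells and 2 arrays of cells from IL-33 knockout mice, each labelled a biological replicate. For all of them total RNA was the extracted material and biotin the label. IL-33 is an alarmin that structural cells of the lung release and that ILC2s sense. The sources used here do not give the allele, the strain, the age beyond adult, any pooling of animals or the gates used to isolate the cells. The labels do not say whether replicates came from separate animals, and a p-value measures only the spread between these arrays.

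ILC2s are tissue-resident lymphocytes that release type 2 cytokines, and lipid mediators act on them next to alarmins. Prostaglandin E2 and prostacyclin act through receptors that couple to the stimulatory G protein and raise cyclic AMP, and both are known to restrain cytokine release by ILC2s. Prostaglandin D2, through CRTH2, and the cysteinyl leukotrienes, through their own receptors, are known to attract or stimulate these cells. Leukotriene B4, bound by the product of Ltb4r1, is a chemoattractant for leukocytes.

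Values are log2 signals of a probe set, so a difference of 1 is a 2-fold change. Probes differ in how well they bind, and signals are therefore compared between arrays for a gene and not between genes. The medians of the arrays lay between 4.29 and 4.33. Of 13 ILC2 markers, 11 were measured, and their mean was 8.28 to 8.42 in wild-type and 8.19 and 8.34 in knockout arrays. Of these, 3 were above and 8 below 0 in difference, with a median of -0.23; none passed. The groups did not overlap for 3 markers with knockout higher and 1 with knockout lower. Icos, a costimulatory receptor gene, was 1.27 higher in knockout (2.41-fold), Rora 0.37 and Il7r 0.10. Il17rb, a subunit gene of the IL-25 receptor, differed by -0.23. Il5 differed by -0.84 and Klrg1 by -0.56, both with overlap of the groups. The signal of Il33 itself was not lower in the arrays labelled knockout: it read 3.79 and 3.95 there against 3.32 to 3.39 in wild type, a difference of 0.51 without overlap of the groups. Its mean was among the dimmest 25% of genes, so it was not tested, and without the position of the probes relative to the deletion this signal cannot check the genotype labels. Knockout replicate 2 stood apart from its label: Xist, transcribed from the inactive X chromosome of females, read 7.91 there against 2.35 to 3.10 on the other arrays. Y-linked Uty read 7.17 on that array and 5.83 to 6.96 on the others. The other Y-linked genes measured were lowest there, Kdm5d at 4.79 against 5.57 to 5.63 and Eif2s3y at 6.14 against 6.82 to 7.62. In knockout replicate 1 the airway transcript Bpifa1 read 8.52, against 2.85 to 3.22 on all other arrays. Each difference is therefore also given for each knockout array alone.

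None of the 8 genes tested passed the threshold, an adjusted p of 0.05 in a limma fit across all 16635 genes tested, and neither did any other gene (0%). Ltb4r1 was the gene with an unadjusted p below 0.05, 1 of 8, where 7.64% of all genes tested had such a p in either direction and 2.59% toward lower signal in knockout. For Ltb4r1, Ptgir and Fpr2 both knockout arrays lay below all 3 wild-type arrays. Over all genes measured, the groups did not overlap for 16.6% in either direction and for 5.63% with the knockout lower. The 10 genes were listed with results of these arrays known, so these counts are a description.

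The 250 bases before the annotated start of the 3 genes without overlap of the groups are shown for orientation, as the sequence context of the genes on which the description turns. They were taken from RefSeq for GRCm38.p6 and are printed 5′ to 3′ on the gene's strand, the plus strand for each. Capitals mark matches to 3 short motifs searched on both strands: TGTGGT for RUNX factors, AGATAA for GATA factors and TGANTCA for AP-1. The motifs were chosen after the values were seen. RUNX factors and GATA3 act in ILC2s, and AP-1 acts downstream of the IL-33 receptor.
Ltb4r1, chr14:55765712-55765961: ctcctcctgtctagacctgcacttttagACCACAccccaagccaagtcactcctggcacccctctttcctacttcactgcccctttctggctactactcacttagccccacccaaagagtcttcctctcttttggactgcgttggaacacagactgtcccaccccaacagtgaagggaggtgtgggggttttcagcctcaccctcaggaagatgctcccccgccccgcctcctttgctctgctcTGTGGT
Ptgir, chr7:16906240-16906489: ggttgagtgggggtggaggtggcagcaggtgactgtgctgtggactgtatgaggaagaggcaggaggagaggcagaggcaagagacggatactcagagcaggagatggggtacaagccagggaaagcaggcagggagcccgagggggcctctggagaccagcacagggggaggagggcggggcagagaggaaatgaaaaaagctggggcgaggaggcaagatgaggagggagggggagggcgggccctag
Fpr2, chr17:17887574-17887823: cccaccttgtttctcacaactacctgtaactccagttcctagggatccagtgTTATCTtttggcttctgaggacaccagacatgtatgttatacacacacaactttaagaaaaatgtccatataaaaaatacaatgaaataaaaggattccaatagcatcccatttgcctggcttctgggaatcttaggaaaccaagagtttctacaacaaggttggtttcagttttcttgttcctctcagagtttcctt
The window of Ltb4r1 held 2 RUNX matches, 1 beginning 222 bases before the start, on the opposite strand, and 1 beginning 6 bases before it. The window of Ptgir held none of the 3 motifs in these letters. That of Fpr2 held 1 GATA match, beginning 198 bases before the start on the opposite strand. No match overlapped another. Of 32851 promoter windows of the same length, 14% held the RUNX motif, 9.99% the GATA motif and 6.75% the AP-1 motif. The window of Fpr2 had a GC content of 38.8%, against 56.8% for Ltb4r1 and 63.6% for Ptgir.

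Ltb4r1, the high-affinity leukotriene B4 receptor BLT1, had the smallest p of the genes tested. Its signal was 9.03, 9.06 and 8.85 in wild-type arrays and 8.32 and 7.48 in knockout arrays. Both knockout arrays were below every wild-type array, and they were 0.84 apart from each other while the wild-type arrays spanned 0.21. The mean was 7.90 ± 0.59 (SD, n = 2) in knockout and 8.98 ± 0.12 (SD, n = 3) in wild type, a difference of -1.08 on the log2 scale (2.11-fold lower) with a 95% interval of -1.89 to -0.27 in the limma fit. The limma adjusted p over all genes was 0.541. Taken alone, knockout replicate 1 was 0.66 below the wild-type mean (log2 difference -0.66) and replicate 2 was further below it (-1.50). A fit with 1 knockout array holds no spread between knockout arrays, so only the size of the difference is given. Replicate 2 is the array with high Xist, on which Y-linked genes also gave signal, so its sex is unclear. Both knockout arrays carry the same genotype label, and what set replicate 2 apart from replicate 1 was not tested. Its part in the mean difference between the groups cannot be told apart from genotype.

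**Figure D1:**
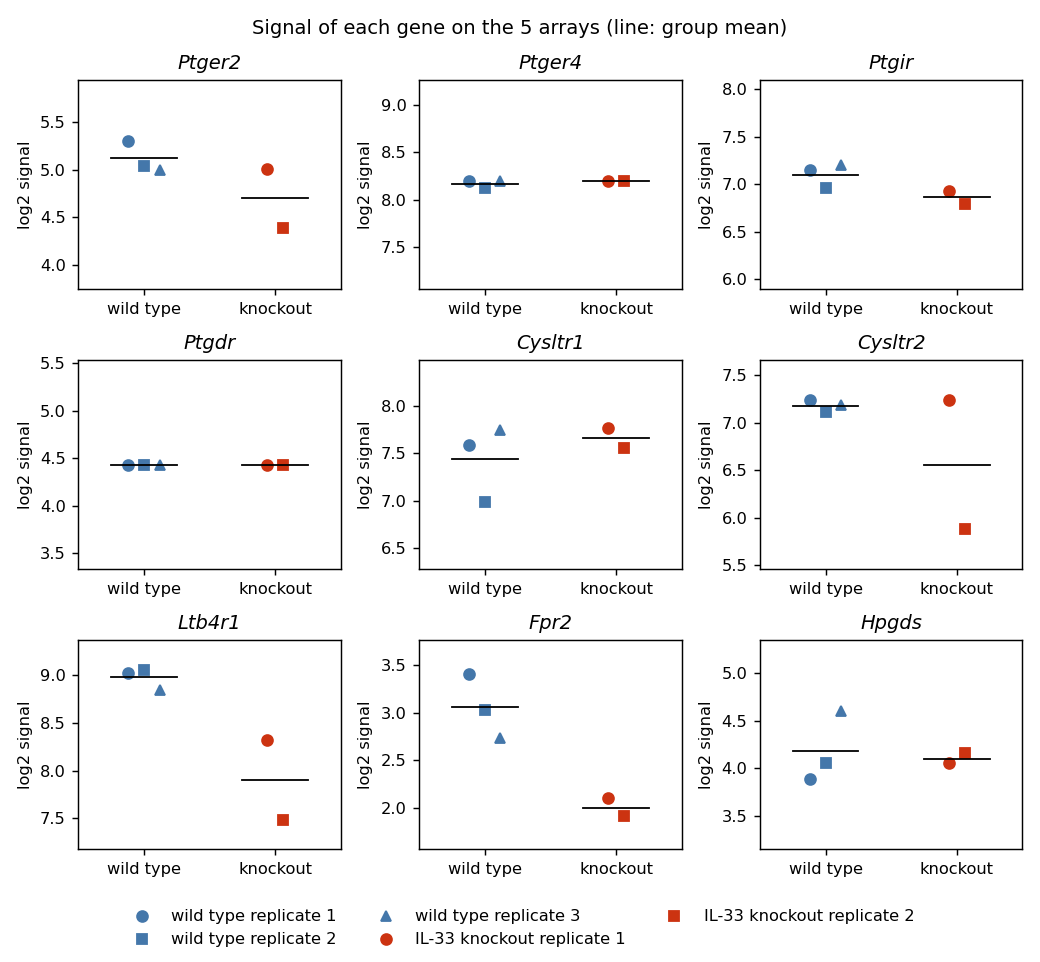
Log2 signal of the 9 genes on each array, 1 panel per gene, with wild type in blue, IL-33 knockout in red and a line at the group mean; every vertical axis spans the same number of log2 units. For Ltb4r1, Ptgir and Fpr2 both knockout points lie below all 3 wild-type points, and for Cysltr2 knockout replicate 2 stands alone at 5.88.

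Markers of other lung cells differed between the same arrays. Of 8 epithelium markers measured and tested, 6 were above and 2 below 0 in difference, and the list mean was 4.36 to 4.61 in wild type against 5.90 and 4.93 in knockout. The groups did not overlap for 4 of them, Scgb1a1, Sftpc, Epcam and Sftpa1, each higher in knockout, and for 0 with knockout lower. Over all genes measured the share was 16.6% in either direction. Scgb1a1 read 8.81 and 5.93 in knockout against 3.62 to 5.01 in wild type. The endothelium list, with 6 markers measured, lay at 4.95 to 5.04 against 5.22 and 5.63. Of 5 tested, 4 were above and 1 below 0, with a median difference of 0.09. Cldn5 was higher by 1.59 and Cdh5 by 1.44, both without overlap of the groups. Kdr was lower without overlap, with a difference of -0.15. The mean of 7 neutrophil markers was 3.64 to 3.89 in wild type and 4.48 and 3.79 in knockout arrays. Within it, Ngp read 5.40 in knockout replicate 1 against 3.74 to 3.83 on the other arrays, S100a9 5.27 against 4.08 to 4.83, S100a8 3.82 against 2.07 to 3.38 and Camp 3.13 against 2.36 to 2.51, while Ltf read 3.83 on every array. The T cell list had 5 of 6 markers measured. Its mean was lower in knockout, at 5.45 and 5.44 against 5.50 to 5.61. Of the 5, 2 were above and 3 below 0 in difference, with a median of -0.24. Cd3e was lower without overlap of the groups, at 4.88 and 5.34 against 5.44 to 5.86. Cd8a was higher without overlap, at 4.12 and 4.16 against 3.41 to 4.05. Mast cell and basophil markers had a list mean of 4.32 and 4.34 in knockout against at most 4.21 in wild type. Of 8 measured, 4 were tested, 2 above and 2 below 0 in difference, with a median of -0.03. Fcer1a and Cma1, higher in knockout without overlap of the groups, were too dim to be tested. The knockout arrays overlapped the wild-type range or lay on either side of it for macrophage and dendritic cell (3.95 and 3.94 against 3.67 to 4.26), eosinophil (3.10 and 3.22 against 3.14 to 3.18) and fibroblast markers (4.02 and 4.19 against 3.94 to 4.07). RMA values have no true 0. In such bulk samples fewer cells of a type and less RNA per cell cannot be told apart, and the part of other cells in the difference of Ltb4r1 was not tested.

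The genes whose profile over the 5 arrays lay nearest to that of Ltb4r1, after centring each gene on its mean, were Ip6k1, Dok1 and Esyt1. Their root mean square distances were 0.103, 0.103 and 0.145 log2 units among 13872 genes compared. Ip6k1, an inositol hexakisphosphate kinase gene, read 5.82 to 5.95 in wild type and 5.45 and 4.34 in knockout. Dok1, which encodes an adaptor of tyrosine kinase signalling, read 5.78 to 6.04 against 5.01 and 4.27. Esyt1, which encodes a tether between the endoplasmic reticulum and the plasma membrane, read 9.99 to 10.08 against 9.34 and 8.87. All of these were lowest in knockout replicate 2, as Ltb4r1 was, which follows from choosing them by likeness over these same arrays. None passed in the limma fit, with an adjusted p of 0.623 for Ip6k1, 0.466 for Dok1 and 0.417 for Esyt1.

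Of the receptors that raise cyclic AMP, none passed; differences between them were not tested. Ptgir, the prostacyclin receptor, read 7.15, 6.96 and 7.20 in wild-type arrays and 6.93 and 6.79 in knockout arrays. The groups did not overlap, but the gap between the nearest arrays was smaller than the spread of 0.25 among wild-type arrays. The difference was -0.24 (95% interval -0.53 to 0.05; limma adjusted p 0.623), and it was -0.17 with knockout replicate 1 alone and -0.31 with replicate 2 alone.

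Ptger2, the EP2 receptor for prostaglandin E2, read 5.30, 5.04 and 5.003 in wild type and 5.01 and 4.39 in knockout. Knockout replicate 1 lay at the low end of the wild-type range and replicate 2 below it. The difference of -0.42 had a 95% interval of -1.08 to 0.25 and a limma adjusted p of 0.623. It rested on replicate 2: taken alone, replicate 1 differed by -0.10 and replicate 2 by -0.73.

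Ptger4, the EP4 receptor and the other stimulatory receptor for prostaglandin E2, read 8.20 on 4 of the 5 arrays and 8.12 in wild type replicate 2. Its difference of 0.03 had a 95% interval of -0.11 to 0.16, so a change as large as that of Ltb4r1 lies outside the interval, while its sign depended on the scaling of the arrays. Each knockout array alone was also 0.03 above the wild-type mean. Ptger4 had 3 distinct values over 5 arrays before rounding, and such equal values make the spread, and with it the interval, too small.

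Ptgdr, the DP1 receptor for prostaglandin D2, gave 4.43 on all 5 arrays, the same deposited value each time. A gene with 1 value on all arrays has no measured spread, so no interval is printed or drawn for it; 806 of the genes measured (3.63%) were of this kind. The second probe set of Ptgdr read 2.60 on 4 arrays and 3.03 in knockout replicate 2. Neither probe set gave a graded signal over the arrays. Ptgdr and Ptger2 are adjacent protein-coding genes on chromosome 14 in GRCm38.p6, where 4 of the 9 genes measured lie, Ltb4r1 and Cysltr2 being the others.

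**Figure D2:**
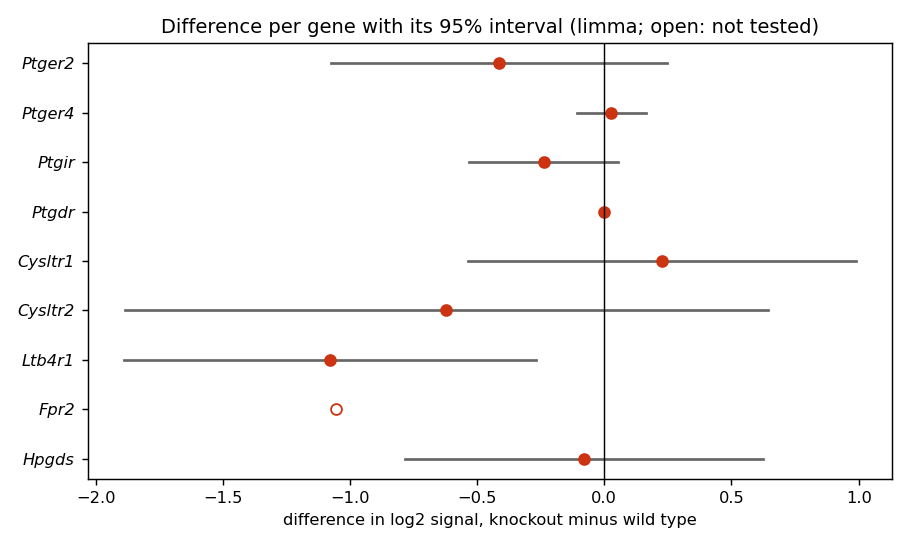
Difference in log2 signal, knockout minus wild type, for each gene (horizontal axis), with bars for the 95% interval of the limma fit and an open point for Fpr2, which was not tested. The interval of Ltb4r1, -1.89 to -0.27, does not include 0 before adjustment, and the other intervals drawn do; Ptgdr, with the same value on every array, has no bar.

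Both cysteinyl leukotriene receptors had signals that overlapped between genotypes. Cysltr1, the higher-affinity receptor for leukotriene D4, read 7.59, 6.99 and 7.74 in wild type and 7.77 and 7.56 in knockout. The low value of wild type replicate 2 set the size of the difference, 0.23 (95% interval -0.54 to 0.99; limma adjusted p 0.733), which was 0.001 without that array. Taken alone, knockout replicate 1 differed from the wild-type mean by 0.33 and replicate 2 by 0.12.

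Cysltr2, the second cysteinyl leukotriene receptor, read 7.24, 7.11 and 7.19 in wild type and 7.24 and 5.88 in knockout. Knockout replicate 1 matched the wild-type arrays and replicate 2 stood 1.30 below their mean. The knockout arrays were 1.36 apart, the widest such gap among the 9 genes. The difference over both was -0.62 (95% interval -1.88 to 0.64; limma adjusted p 0.623). With replicate 2 as the only knockout array it was -1.30, and with replicate 1 as the only one it was 0.06. The low signal of Cysltr2 was therefore a feature of 1 array, the one with high Xist, and not of both knockout arrays.

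Knockout replicate 2 was the lowest array for 5 of the 9 genes: Ptger2, Ptgir, Cysltr2, Ltb4r1 and Fpr2. Over all genes measured it was the lowest for 18.1%. Knockout replicate 1 was the lowest for 0 of the 9, against 13.6% of all genes. This count was made after the values were seen and carries no test. With knockout replicate 2 left out, the difference of Ltb4r1 was -0.66, that of Fpr2 -0.96 and that of Ptgir -0.17, while that of Ptger2 was -0.10.

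**Figure D3:**
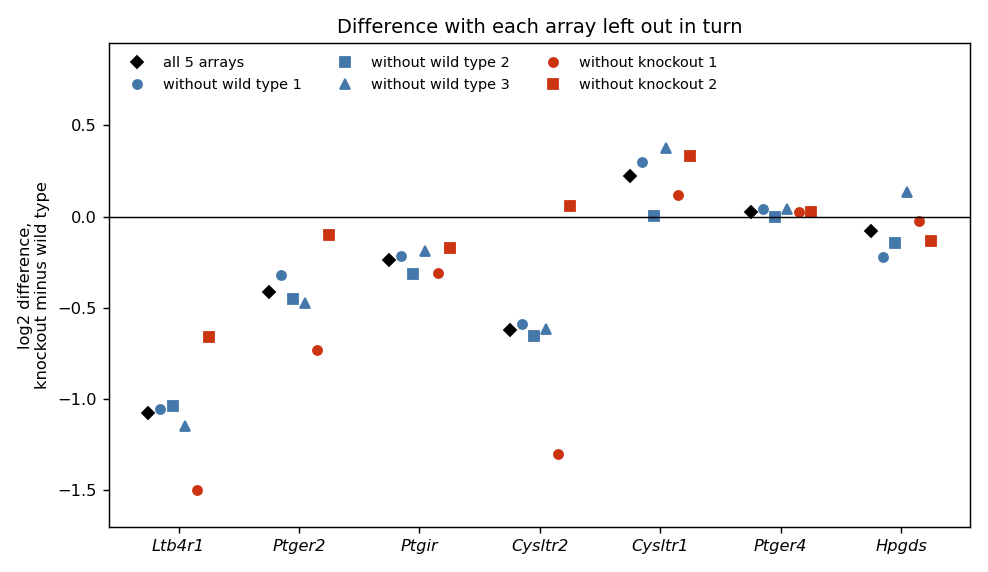
Difference in log2 signal, knockout minus wild type (vertical axis), for the 7 tested genes with more than 1 value, with all 5 arrays (black) and with each array left out in turn (blue: a wild-type array left out; red: a knockout array left out). Ltb4r1, Ptger2 and Ptgir stay below 0 in each of these fits, whereas Cysltr2 moves from -1.30 without knockout replicate 1 to 0.06 without replicate 2.

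Fpr2 and Hpgds had dim signals. Fpr2, a formyl peptide receptor that also binds the lipoxin derived from arachidonic acid, read 3.41, 3.03 and 2.73 in wild type and 2.10 and 1.91 in knockout. The groups did not overlap and the difference was -1.05, with -0.96 for knockout replicate 1 and -1.15 for replicate 2. On every array, however, the signal was below 3.56, the mean that separated the 25% of genes left out as dim, so Fpr2 was not tested and the size of its difference is uncertain. Without that filter its limma adjusted p was 0.528. Hpgds, which makes prostaglandin D2 in immune cells, read 3.89, 4.05 and 4.60 in wild type and 4.05 and 4.16 in knockout. The knockout values lay within the wild-type range, and the difference of -0.08 (95% interval -0.78 to 0.63; limma adjusted p 0.908) changed sign without wild type replicate 3, to 0.13. It was -0.13 for knockout replicate 1 alone and -0.02 for replicate 2 alone.

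Other genes of the pathway were read from lists of synthesis, further receptors, export and breakdown, and signalling. Of 12 synthesis genes tested, 0 passed; 6 were above, 4 below and 2 at 0 in difference, with a median of 0.02 against 0.04 over all genes tested. Ltc4s, the leukotriene C4 synthase gene, read 3.86, 3.58 and 3.86 in wild type and 4.15 and 4.18 in knockout, a difference of 0.40 (limma adjusted p 0.551) near the dim end of the scale. Of 6 further receptors tested, 0 passed and 6 were above 0, with a median of 0.18; after quantile normalization or median centring, 5 were above and 1 below. Tbxa2r, the thromboxane receptor gene, read 5.44 in each wild-type array and 5.58 and 5.81 in knockout, a difference of 0.25 (limma adjusted p 0.607) that was 0.14 without knockout replicate 2.

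Among 10 export and breakdown genes, 0 passed, 6 were above and 4 below 0, and the groups overlapped for each. Ptgr2, a prostaglandin reductase gene, differed by -0.09 and Abcc1, which encodes an exporter of leukotriene C4, by -0.07. Both were within the spread of the arrays, and the sign for Abcc1 was positive in some of the alternative settings, up to 0.13.

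Among 20 genes of cyclic AMP and G protein signalling, 0 passed, 9 were above, 10 below and 1 at 0, with a median of -0.03. Pde4a, a phosphodiesterase gene whose product breaks down cyclic AMP, read 4.71, 4.39 and 4.71 in wild type and 5.06 and 5.43 in knockout, a difference of 0.64 (limma adjusted p 0.541). Crem, a cyclic AMP responsive transcription factor gene, read 5.11, 5.11 and 4.93 against 5.81 and 5.34, a difference of 0.53 (limma adjusted p 0.602). Prkaca, a catalytic subunit of the cyclic AMP dependent kinase, was lower, at 6.38 and 5.99 against 6.99, 6.58 and 6.86, a difference of -0.62 (limma adjusted p 0.567). Each kept its sign in all alternatives run, but the size moved: Prkaca differed by -0.25 with the mean of its probe sets and Crem by 0.29 without knockout replicate 1. These 3 genes were chosen by a rule that requires groups without overlap and an unadjusted limma p below 0.05, and none passed. In the list of 20, the groups did not overlap for 4 genes with knockout higher and 1 with knockout lower. Over all genes measured the share was 16.6%. Gna13 had the largest difference of the list, at 8.87 and 8.07 in knockout against 6.92 to 7.88 in wild type. Pde3b read 8.61 and 8.66 against 7.85 to 8.44, and neither passed.

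**Figure D4:**
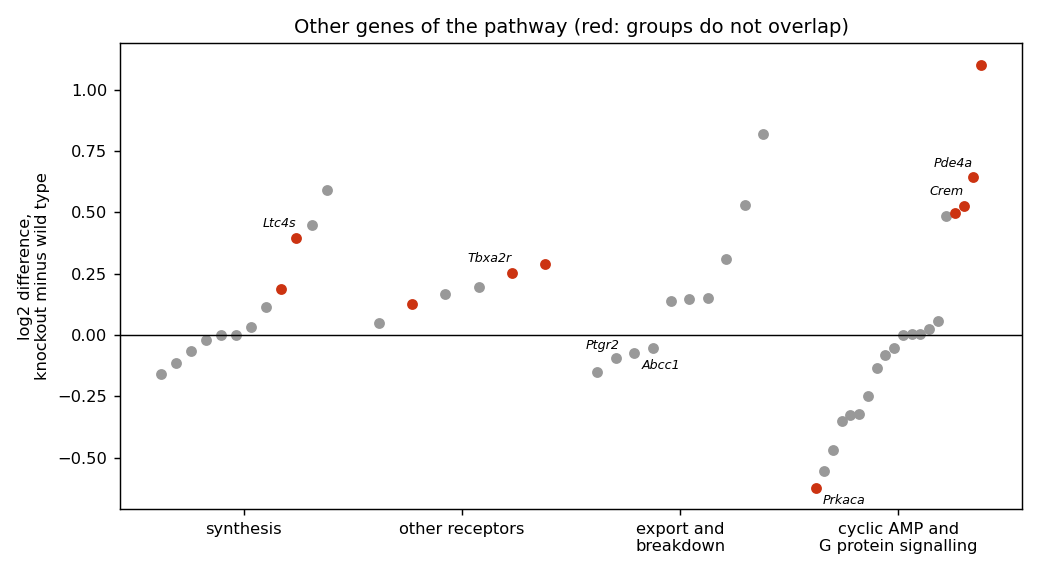
Difference in log2 signal, knockout minus wild type (vertical axis), for the tested genes of the 4 lists, ordered within each list. Red points mark genes whose groups do not overlap, and labels mark the genes chosen by the naming rule. Pde4a at 0.64 and Prkaca at -0.62 lie on opposite sides of 0.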

How the data were processed

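The authors deposited log2 probe-set signals for 5 arrays. Affymetrix Expression Console and RMA are named in the submitters' processing notes, and the sources used here give no settings, versions or genome build. RMA usually equalises the arrays, which hides a shift common to all transcripts. Of 41345 probe sets, 23521 had 1 symbol in the platform annotation, 1814 several and 16010 none; 23328 of the first kind were matched by identifier to RefSeq names (GRCm38.p6).

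A gene with several probe sets was read from the one with the highest mean. The dimmest 25% of genes were left out, and 16635 were compared between genotypes with limma 3.58.1 in R 4.3.3 (Benjamini-Hochberg, threshold 0.05, no block). The number of arrays limits the precision. Arrays of this design and 16635 genes were simulated with normal noise. Each gene got a spread drawn at random from the nonzero spreads between wild-type arrays over all genes tested, the same in both groups. Equal values on several arrays, and any link between level and spread, were thus not carried over. The fit recovered 60% of changes of 2-fold, 74% at 4-fold and 88% at both 8-fold and 16-fold, and called 8 of 16435 unchanged genes. The deposited knockout arrays were less alike, with a correlation of 0.893 against 0.929 to 0.933 among wild-type arrays. The recovered shares may therefore be too high for the deposited arrays. Genes and lists were chosen with earlier results of these data known. By rule the text names the listed genes and the 3 genes nearest to the listed gene with the smallest p. The rule also names up to 4 genes per pathway list with no overlap of the groups and an unadjusted p below 0.05. Where a list had none, the 2 with the highest mean are named. Gna13 and Pde3b were added outside this rule after their values were seen. Markers of other cells, Xist and the Y-linked genes serve as checks, the latter named after their values were seen.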

Additional observations from a re-analysis of the deposited data

How the results depend on the processing

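With limma, 0 of the 8 genes, 0 of the other pathway genes and 0 genes over all passed at an adjusted p of 0.05, and this held at 0.1 and under each filter, probe-set rule, scaling and variance model tried, and with array weights. At an unadjusted p below 0.05 there were 1 of 8 and 1271 of 16635 genes. Leaving out 1 array changed the counts: 0 to 2 of the genes passed (Ltb4r1 and Cysltr2 without knockout replicate 1), 0 to 3 pathway genes (Gna11, Oxgr1 and Tbxa2r without knockout replicate 1; 1, Gpr17, without replicate 2) and 0 to 1072 genes over all, with 389 without knockout replicate 2. The fits with 1 knockout array left out assign the lone knockout array the spread of the wild-type arrays. Their counts therefore do not measure the spread between knockout arrays.

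The groups did not overlap for 3 of the 9 genes, for 5 after quantile normalization and for 5 after median centring (Ptger2 and Ptgdr added; equal values are there split by the scaling alone), and for 3 to 6 with 1 array left out. The 6 arose without knockout replicate 1, where a single knockout array had to lie outside the wild-type range. Fewer arrays make a lack of overlap easier to reach. Shares over all genes were not counted for these alternatives, so their counts have no background beside them. Scaling moved the median difference over all genes from 0.04 to 0.01 and -0.01. Ltb4r1 ranged from -1.50 to -0.66, Ptgir from -0.31 to -0.17 and Ptger2 from -0.73 to -0.10 without a change of sign. Signs changed for Ptger4 (-0.029 after quantile normalization and -0.026 after median centring). With 1 array left out Cysltr2 ranged from -1.30 to 0.060, the latter without knockout replicate 2, and Hpgds from -0.22 to 0.13, the latter without wild type replicate 3. A fit with the replicate number as a block leaves wild type replicate 3 without a partner and so without weight. In it Hpgds was 0.13, 0 genes passed and Ltb4r1 differed by -1.14 (limma adjusted p 0.733). Deviations of same-numbered arrays from their group means had correlations of -0.05 and 0.14. With 2 knockout arrays, the deviations of 1 mirror those of the other, so these values cannot show whether the numbers denote pairs. The labels name no pairs, and the numbers were not taken as such.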
